A study of Mus musculus with 23 samples.

Results

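Nondiabetic bone of mice labelled Sarm1 KO (KO Control) was compared with nondiabetic bone of wild-type mice (WT Control) across all genes counted well enough to test. These were 11 of the 23 libraries of the series, 6 from KO Control and 5 from WT Control, with 1 library per mouse, and 14364 of the 67228 gene entries of the count table had at least 10 counts in at least 5 of the 23 libraries. All mice were female, 11 weeks old and of the C57BL6/N strain, and RNA had been taken from femur and tibia after removal of marrow. Control mice had received saline in place of streptozotocin (STZ), a toxin of pancreatic beta cells. The WT T1D and KO T1D groups (n = 6 each) were given 100 mg/kg STZ and were sampled after 3 weeks of diabetes. They are used here as other mice in which the same genotypes can be compared. Their libraries also entered the gene filter and the shared estimate of the spread behind the Control comparison. The KO is global and present from conception, so it is not limited to nerve or to bone. The line had been backcrossed to C57BL/6N, and the study's authors name carryover of 129/SvJ material on chromosome 11 as a possibility in Sarm1 KO lines, which was not tested here. WT mice were littermates or purchased, and the labels do not say which mouse was which. Mouse numbers began with A36 or A37 in KO Control and with A17, A37 or A39 in WT Control, so the number series largely cannot be told apart from genotype. In the T1D groups they began with A36 in KO and with A17 or A39 in WT, so there the series cannot be told apart from genotype at all.

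SARM1 is an enzyme that breaks down NAD+. In neurons it is held inactive in healthy axons and is switched on by injury or metabolic stress, after which NAD+ falls and the axon degenerates. It carries a TIR domain, the signalling domain of Toll-like receptors and their adaptors, and its gene lies on mouse chromosome 11. Bone contains few neuronal cell bodies, and bone-forming osteoblasts, bone-resorbing osteoclasts, cartilage and remaining marrow cells supply most of the RNA.

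Sarm1 (GRCm38.p6, chromosome 11, 78470273 to 78497816, minus strand) was at the lower edge of detection in every group. Counts were normalized with TMM and are given as CPM, counts scaled to a common library size. The 5 WT Control mice had 0.85, 0.90, 0.93, 1.43 and 1.76 CPM. The 6 KO Control mice ranged from 0.27 to 1.57 CPM with a median of 0.74. The groups overlapped, with 3 of 6 KO Control mice below all WT Control mice. The difference on the log2 (CPM + 0.5) scale was -0.42 (two-sided exact permutation test, p = 0.18), and edgeR gave a log2 fold change of -0.55 ± 0.38 (SE). In the T1D groups the sign was opposite, with 0.34 to 1.21 CPM in WT T1D and 0.81 to 1.46 CPM in KO T1D, with KO T1D the higher group. The difference there was 0.53 on the log2 (CPM + 0.5) scale (two-sided exact permutation test, p = 0.015), and edgeR gave 0.78 ± 0.37 (adjusted p = 0.28). Sarm1 counts were thus not lower in both KO groups and went against the label in T1D, and the libraries are named by their labels throughout. By qPCR the study's authors found Sarm1 low in bone and significantly lower in KO bone than in WT bone. Counts of the whole gene include any transcript that a knockout allele still makes, and the deleted part could not be looked at separately in a table of 1 value per gene. Sarm1 also shares 1673 bases with the end of Slc46a1 on the opposite strand, and the use of strand in counting is not given in the sources used here.

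The 2 groups differed in 4 of 14364 genes at a Benjamini-Hochberg adjusted p under 0.05 in edgeR's quasi-likelihood test (0.0278%), and all 4 were on chromosome 11 within 6.2 Mb of Sarm1. Xaf1, Vtn and Tlcd2 were higher in KO Control and Ccdc92b was lower. At an unadjusted p under 0.05 there were 690 genes (4.8%), of which 330 were higher and 360 lower. This count was 847 in the edgeR fit of the nondiabetic libraries alone and 943 without WT T1D mice A3905 and A3906, described below. Over the alternative analyses it ran from 507 to 943. Levels of the 2 groups did not overlap for 88 genes (0.613%), of which 46 were higher and 42 lower. The median log2 fold change over all genes was 0.00, its quartiles were -0.10 and 0.09, and 94.9% of genes were within 0.5 of 0. Of the 686 genes at an unadjusted p under 0.05 that did not pass, 396 (57.7%) had the same sign in the T1D mice. Of these 396, 99 also had an unadjusted p under 0.05 there. In the T1D comparison 17.1% of all genes had one with either sign, so that share cannot be set directly against the 99.

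**Figure D1:**
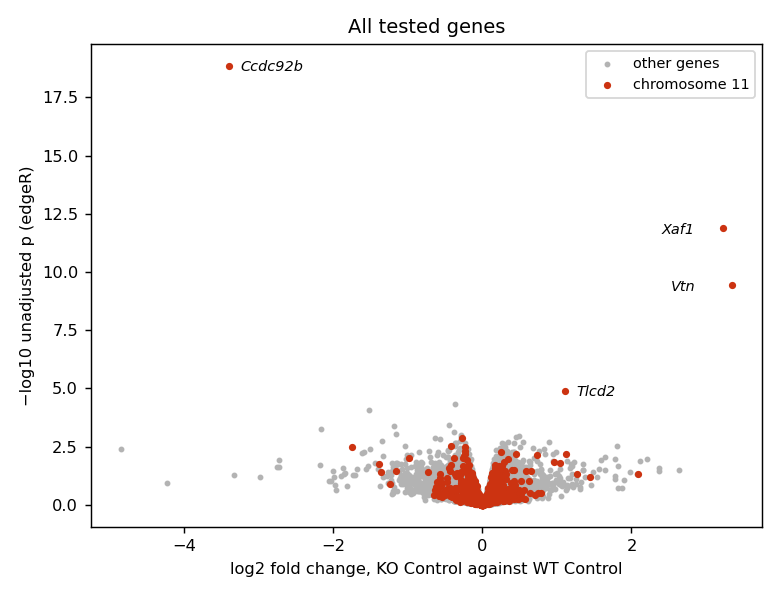
Log2 fold change of each of the 14364 tested genes in KO Control against WT Control (x axis) and the unadjusted p of edgeR's test as −log10 (y axis), with chromosome 11 genes in red. The 4 genes past an adjusted p of 0.05 stand above the rest and are all red.

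Ccdc92b encodes a coiled-coil protein about which little is established. It had 18.4, 21.1, 22.4, 22.9 and 23.3 CPM in WT Control. In KO Control it ranged from 1.21 to 2.31 CPM with a median of 2.22. Every KO Control mouse was far below every WT Control mouse, and the log2 fold change was -3.40 ± 0.12 (SE; adjusted p = 2.0e-15), a 10.5-fold lower level. The gene lies at 74619594 to 74641516, 3.83 Mb from Sarm1.

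Xaf1 encodes XIAP-associated factor 1, an interferon-inducible protein that favors apoptosis by opposing the inhibitor XIAP. It had 9.49, 10.04, 10.5, 10.8 and 15.3 CPM in WT Control. In KO Control it ranged from 90.5 to 121.6 CPM with a median of 105.6. The groups did not overlap, and the log2 fold change was 3.22 ± 0.24 (adjusted p = 9.5e-09), a 9.35-fold higher level. The gene lies at 72301461 to 72313733, 6.16 Mb from Sarm1.

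Vtn encodes vitronectin, an adhesive glycoprotein of plasma and matrix that binds integrins, including those of osteoclasts. It had 1.04, 1.30, 1.70, 1.87 and 2.26 CPM in WT Control. In KO Control it ranged from 12.2 to 21.0 CPM with a median of 16.2. The lowest KO Control mouse was well above the highest WT Control mouse, and the log2 fold change was 3.35 ± 0.32 (adjusted p = 1.8e-06), a 10.2-fold higher level. Vtn is the neighbor of Sarm1, at 78499120 to 78502325, and the genes point away from each other with 1303 bases between their 5′ ends.

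Tlcd2 encodes a membrane protein of the TRAM, LAG1 and CLN8 domain family. It had 2.30, 2.63, 3.16, 4.11 and 5.01 CPM in WT Control. In KO Control it ranged from 6.16 to 8.21 CPM with a median of 7.79. The groups did not overlap, but the gap was small beside that of the other genes. The log2 fold change was 1.11 ± 0.20 (adjusted p = 0.047). The call was lost in 20 of 24 alternative analyses, among them the removal of any single mouse other than WT Control A3907. Another of the 20 was the edgeR fit of the nondiabetic libraries alone (adjusted p = 0.15). The gene lies at 75468024 to 75470899, 3.00 Mb from Sarm1.

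Bases from before the start of these genes and of Sarm1 are shown because 3 of the 4 genes were higher together and because Sarm1 and Vtn share the interval between them. Sequences are from RefSeq promoter windows (GRCm38.p6), cut to the bases that lie before the outermost start of the gene and written 5′ to 3′ on its strand, for 4 of the 5 genes (Ccdc92b is named only). They are chr11:78498870-78499119 (plus strand, 250 bases) for Vtn, chr11:75467800-75468023 (plus strand, 224 bases) for Tlcd2, chr11:72301379-72301460 (plus strand, 82 bases) for Xaf1 and chr11:78497817-78498004 (minus strand, 188 bases) for Sarm1. Capitals mark matches on either strand to 3 motifs, namely the interferon-stimulated response element core (GAAA, any 2 bases, GAAA), the TATA box core TATAAA and the GC box core GGGCGG.
Vtn: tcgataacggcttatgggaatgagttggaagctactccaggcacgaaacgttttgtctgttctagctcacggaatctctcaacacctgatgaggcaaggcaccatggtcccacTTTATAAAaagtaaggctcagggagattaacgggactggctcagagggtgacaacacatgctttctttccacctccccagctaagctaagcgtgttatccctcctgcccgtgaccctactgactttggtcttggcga
Tlcd2: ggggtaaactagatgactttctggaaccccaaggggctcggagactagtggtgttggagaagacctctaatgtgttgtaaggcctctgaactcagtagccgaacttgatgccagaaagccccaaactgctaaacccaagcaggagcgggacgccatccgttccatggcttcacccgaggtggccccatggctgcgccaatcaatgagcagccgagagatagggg
Xaf1: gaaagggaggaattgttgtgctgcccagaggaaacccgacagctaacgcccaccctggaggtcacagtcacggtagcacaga
Sarm1: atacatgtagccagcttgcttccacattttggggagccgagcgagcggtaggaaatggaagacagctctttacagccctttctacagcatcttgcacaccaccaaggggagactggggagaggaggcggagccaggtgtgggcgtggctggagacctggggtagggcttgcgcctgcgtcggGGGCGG
The Vtn stretch held 2 overlapping matches to TATAAA, on opposite strands, and 12.4% of 32851 RefSeq promoter windows hold one in as many bases. The Sarm1 stretch held 1 match to GGGCGG, as do 22.4% of windows in as many bases. The Tlcd2 and Xaf1 stretches held none of the motifs. The interferon-stimulated response element core was in none of the 4, which says only that these letters are not there, and in 1.04% to 2.98% of windows at these lengths.

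**Figure D2:**
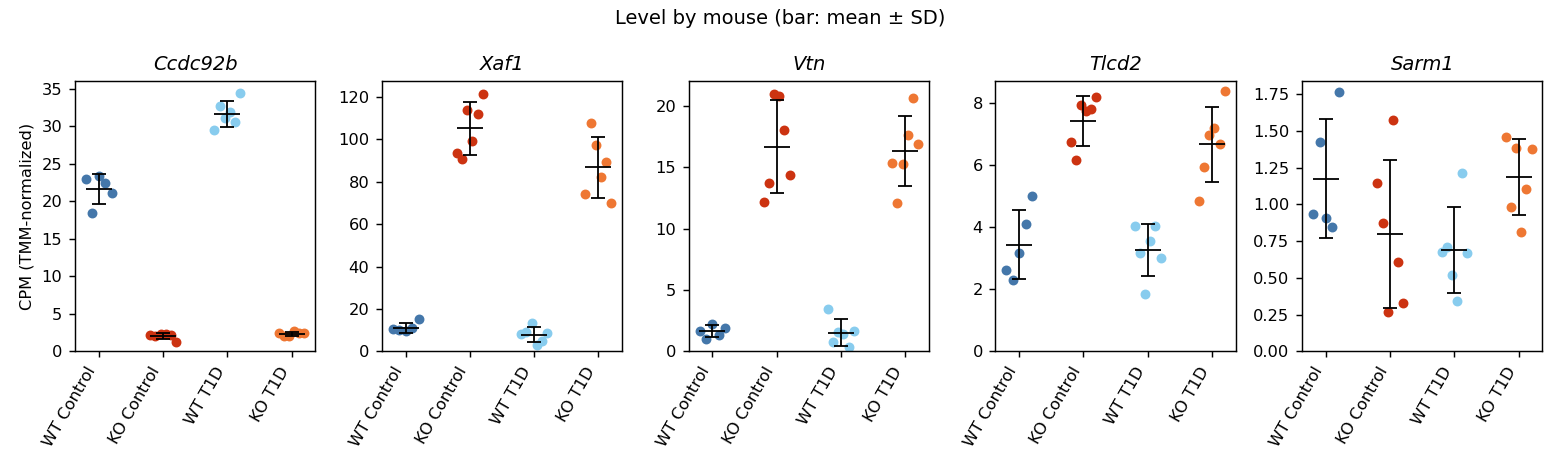
CPM (y axis, from 0) of the 4 genes past the threshold and of Sarm1 in each mouse of the 4 groups, with a bar for the mean and SD. Ccdc92b, Xaf1, Vtn and Tlcd2 separate KO from WT in nondiabetic and in T1D mice, and Sarm1 overlaps.

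The same genes were then examined in the T1D mice, which share no animal with the Control groups. All 4 differed there in the same direction. Ccdc92b ranged from 29.4 to 34.4 CPM in WT T1D and from 2.02 to 2.70 CPM in KO T1D (log2 fold change of -3.75 ± 0.12). Xaf1 ranged from 3.00 to 13.2 CPM in WT T1D and from 69.8 to 107.6 CPM in KO T1D (3.46 ± 0.22). Vtn ranged from 0.35 to 3.43 CPM in WT T1D and from 12.1 to 20.7 CPM in KO T1D (3.40 ± 0.30). Tlcd2 ranged from 1.84 to 4.05 CPM in WT T1D and from 4.85 to 8.39 CPM in KO T1D (1.03 ± 0.19). None of these ranges overlapped, as was so for 0.863% of all genes in T1D mice, and the two-sided exact permutation test gave p = 0.0022 for each gene (also 0.0022 after adjustment over the 4), the smallest value that 6 against 6 mice can give.

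In the fit across all genes, 13 of 14364 genes (0.0905%) passed in KO T1D against WT T1D, among them all 4 of the Control comparison. WT T1D mice A3905 and A3906 stood apart from the other mice, with osteoblast marker sums of 10724 and 8793 CPM against 62278 CPM or more in every other mouse. Without them 4 of 14364 genes passed (0.0278%), namely Ccdc92b, Xaf1, Vtn and Pitpnm3, and Tlcd2 missed the threshold (1.14 ± 0.22, adjusted p = 0.084). The difference between the genotype effects in T1D and in Control passed for 0 genes in edgeR's interaction test (lowest adjusted p = 0.48). It had an unadjusted p under 0.05 for 1467 of 14364 genes, against 690 in the Control comparison. Without A3905 and A3906 it also passed for 0 genes. Equal effects in T1D and Control are not thereby shown.

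Of the 9 other genes that passed in the T1D comparison, 7 had the same sign in Control and 4 had an unadjusted p under 0.05 there. These 4, chosen after their values were seen, were Ear1, Spns3, Alox15 and Adam33. Spns3, a member of the spinster family of lipid transporters, did not overlap between the Control groups, with 14.6 to 18.0 CPM in WT Control and 19.6 to 25.8 CPM in KO Control (log2 fold change of 0.45 ± 0.15). Alox15, a lipoxygenase that eosinophils and resident macrophages express, ranged from 46.6 to 90.6 CPM in WT Control and from 69.3 to 184.5 CPM in KO Control (0.74 ± 0.25). Adam33, a membrane metalloprotease, was at 7.01 CPM on average in WT Control and 4.96 CPM in KO Control (-0.50 ± 0.22).

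Position on chromosome 11 was examined because all called genes lay there. Of 1198 tested genes on chromosome 11, 71 had an unadjusted p under 0.05 (5.93%), the highest share among 20 chromosomes, the lowest being 3.56% on chromosome 6. Among 327 genes within 10 Mb of Sarm1 the count was 37 (11.3%), 17 of them higher and 20 lower. Among the 870 chromosome 11 genes farther away it was 34 (3.91%), and among the 13109 genes on other chromosomes it was 614 (4.68%). Levels did not overlap between groups for 10 of the 327 genes within 10 Mb (3.06%), for 7 of the 870 farther away (0.80%) and for 70 of the 13109 elsewhere (0.53%). The counts within 10 Mb include the called genes themselves. In windows of 1, 2, 5 and 20 Mb the share at an unadjusted p under 0.05 was 18.6%, 12.7%, 12.4% and 8.41%. The windows were chosen by distance alone, and these counts are a description with no test.

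Within 10 Mb, 6 genes besides the called ones did not overlap between groups, 4 higher and 2 lower, and none passed. They are named after their values were seen. Pitpnm3, a phosphatidylinositol transfer protein, ranged from 9.69 to 16.1 CPM in WT Control and from 20.3 to 42.7 CPM in KO Control (log2 fold change of 1.04 ± 0.40). In T1D mice Pitpnm3 ranged from 0.85 to 10.4 CPM in WT T1D and from 16.4 to 41.7 CPM in KO T1D. The edgeR value there was 1.86 ± 0.39 with an adjusted p of 0.064, and without A3905 and A3906 it was 1.35 with an adjusted p of 0.018. The others were Spns3 (0.45), 4933427D14Rik (0.30), Elp5 (0.16), Ctc1 (-0.24) and Fam222b (-0.20), of which Elp5 serves tRNA modification and Ctc1 telomere maintenance. In the T1D mice 5 of the 6 had the same sign and 3 had an unadjusted p under 0.05, against 17.1% of all genes there.

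None of the genes nearest to Sarm1 passed apart from Vtn. Slc46a1, the proton-coupled folate transporter, whose end overlaps that of Sarm1, ranged from 5.10 to 9.09 CPM in WT Control and from 7.38 to 11.8 CPM in KO Control (log2 fold change of 0.42 ± 0.18). In T1D mice it ranged from 2.78 to 6.31 CPM in WT T1D and from 6.69 to 10.005 CPM in KO T1D, without overlap (0.83 ± 0.18, adjusted p = 0.064), and the value was 0.61 ± 0.17 without A3905 and A3906 (adjusted p = 0.41). Above Vtn, Poldip2 had a log2 fold change of 0.16, Tmem199 of 0.25, Tnfaip1 of -0.01 and Ift20 of 0.12. On the other side of Sarm1, Slc13a2 had a log2 fold change of 0.19, Unc119 of 0.19, Pigs of -0.21, Aldoc of 0.23 and Spag5 of 0.15.

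**Figure D3:**
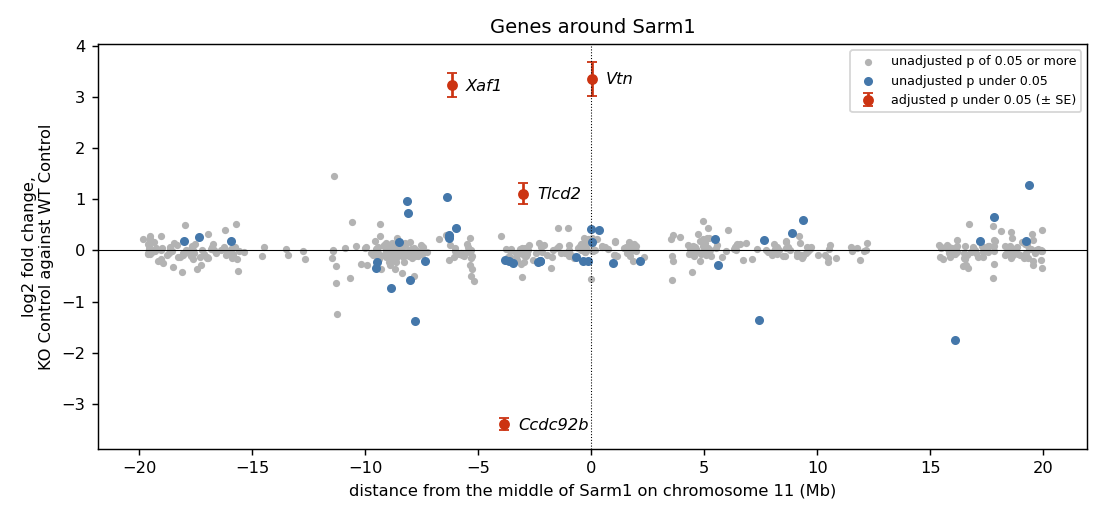
Log2 fold change in KO Control against WT Control (y axis) for tested genes on chromosome 11 within 20 Mb of Sarm1, by distance from the middle of Sarm1 (x axis, Mb). The called genes (red, ± SE) lie between 6.2 Mb before Sarm1 and its direct neighbor Vtn, and most other genes lie near 0.

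No gene outside chromosome 11 passed. The next genes by p are given as values. Pla2g6, a calcium-independent phospholipase, had 13.9, 15.4, 15.7, 15.9 and 16.2 CPM in WT Control. It ranged from 11.5 to 12.5 CPM in KO Control (log2 fold change of -0.36 ± 0.07, adjusted p = 0.14). The groups did not overlap in Control, whereas in T1D mice the log2 fold change was 0.00 ± 0.07.

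H2-Q1, a class I histocompatibility gene, had 1.16, 1.19, 1.26, 1.35 and 1.48 CPM in WT Control. It ranged from 0.27 to 0.56 CPM in KO Control (log2 fold change of -1.52 ± 0.32, adjusted p = 0.20), passed in limma on log2 (TPM + 1) (adjusted p = 0.0071) and had a log2 fold change of 0.42 ± 0.31 in T1D. H2-Q genes are related in sequence, and whether reads were split among them was not tested.

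Ptpn22, a phosphatase that restrains lymphocyte receptor signaling, had 32.1, 36.3, 37.3, 37.6 and 40.9 CPM in WT Control. It ranged from 6.98 to 24.4 CPM in KO Control (log2 fold change of -1.19 ± 0.29, adjusted p = 0.76). The groups did not overlap, and in T1D mice the log2 fold change was -1.15 ± 0.28 (adjusted p = 0.079). Susd2, a membrane protein of mesenchymal cells, had 13.6 to 19.6 CPM in WT Control and 8.98 to 12.6 CPM in KO Control, with log2 fold changes of -0.64 in Control and -0.64 in T1D. Without A3905 and A3906 the T1D values were -0.92 ± 0.29 for Ptpn22 (adjusted p = 0.53) and -0.52 ± 0.18 for Susd2 (adjusted p = 0.64). Both genes thus had the same sign in the other mice without passing in either comparison.

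The remaining genes among the 20 with the smallest p had adjusted p values of 0.76 or more. The lower ones in KO Control were Spns1 (-0.45), Fosb (-2.16), Dop1b (-0.38), Comp (-1.16), Polr2l (-0.28), Tap2 (-0.28), Grn (-0.28), Col27a1 (-0.56), Sox5 (-1.34) and Tep1 (-0.31). Timm21 (0.49) and Zfp984 (0.45) had positive values. Fosb, an AP-1 subunit induced by stimulation and handling, had 0.77, 1.87, 1.97, 5.87 and 10.8 CPM in WT Control against 0.22 to 1.49 CPM in KO Control. The groups overlapped, and 2 WT Control mice were well above all others.

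The largest fold changes among genes with a mean of at least 1 CPM, apart from the called genes, were mostly of genes known from muscle, cartilage and pancreas. Tnni1 (2.64), Tnnc1 (2.37), Myl2 (2.08), Tnnt1 (1.98), Myh7 (1.90), Sln (1.82) and Myl3 (1.78), which encode proteins of muscle and mainly of slow fibers, had their 2 highest values in KO Control, whereas 18 of the 21 tested skeletal muscle markers had a negative value. Myl2 ranged from 4.51 to 66.9 CPM in WT Control and from 5.34 to 268.2 CPM in KO Control, and KO Control mice A3679 and A3766 were the highest. The pancreatic enzymes Ctrb1 (-3.33) and Amy2a5 (-2.99) rested on WT Control mouse A3907, with 29.5 and 21.1 CPM, and no other of the 11 mice exceeded 2.36 CPM for either. Without A3907 their values were 4.09 and 4.69. None of these genes passed.

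Mid1, a microtubule-associated ubiquitin ligase on chromosome X, had 6.09, 9.04, 19.8, 63.5 and 76.9 CPM in WT Control. It ranged from 9.04 to 253.1 CPM in KO Control with a median of 166.1 (log2 fold change of 2.12 ± 0.79). Of the 6 KO Control mice 5 were above all WT Control mice, but the spread within each group was wide and the gene did not pass.

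The cartilage genes Snorc (-2.75), Col9a2 (-2.18), Cytl1 (-2.06), Clec3a (-2.03), Col9a1 (-1.99) and Col10a1 (-1.98) made up most of the other large negative values. Chondrocyte markers were examined as a list because growth plate and joint cartilage can stay on a bone sample. Of 16 tested markers 15 had a negative value, 7 had an unadjusted p under 0.05 against 4.8% of all genes, none passed, and the median log2 fold change was -1.51 against 0.00 over all genes. Col2a1, the main cartilage collagen, ranged from 795.5 to 1676 CPM in WT Control and from 470.7 to 923.2 CPM in KO Control (log2 fold change of -0.79). Comp, a matrix protein of cartilage and tendon, ranged from 14.5 to 57.3 CPM in WT Control and from 11.9 to 24.4 CPM in KO Control (-1.16). Chad, chondroadherin, ranged from 20.02 to 112.3 CPM and from 6.004 to 56.6 CPM (-1.74).

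The chondrocyte values varied widely within each group. Col10a1, made by hypertrophic chondrocytes, had 0.27, 23.4, 76.8, 83.9 and 121.6 CPM in WT Control and ranged from 0.46 to 63.2 CPM in KO Control, so WT Control mouse A3767 had less than the lowest KO Control mouse. The summed level of the list ranged from 3173 to 6138 CPM in WT Control and from 2606 to 4521 CPM in KO Control. These sums did not pass between the groups (two-sided exact permutation test, p = 0.082, adjusted p = 0.47). In T1D mice the median log2 fold change of the list was 0.10 with A3905 and A3906 included, whose chondrocyte sums were 363 and 335 CPM against 2763 CPM or more in the other WT T1D mice. How much cartilage each sample held was not tested.

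**Figure D4:**
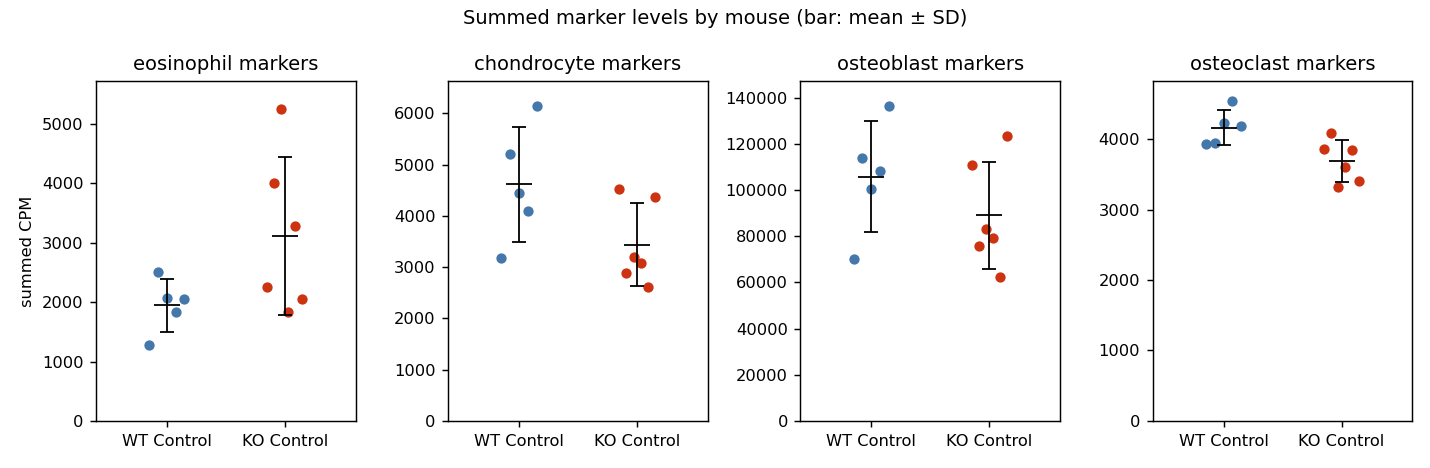
Summed CPM (y axis, from 0) of 4 marker lists in each WT Control and KO Control mouse, with a bar for the mean and SD. The groups overlap in every panel, and 3 KO Control mice hold the highest eosinophil sums.

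Eosinophil markers had the highest median of all lists. Eosinophils are granulocytes that mature in marrow and store cationic granule proteins. All 10 tested markers had a positive value in KO Control, 8 had an unadjusted p under 0.05 against 4.8% of all genes, none passed, and the median log2 fold change was 0.68. Ear1, an eosinophil ribonuclease, had 152.5, 198.0, 251.2, 255.5 and 310.4 CPM in WT Control and ranged from 256.3 to 751.3 CPM in KO Control (log2 fold change of 0.90 ± 0.26). Siglecf, an inhibitory receptor of eosinophils, ranged from 9.75 to 13.9 CPM and from 12.7 to 21.3 CPM (0.54 ± 0.15). Prg2, the major basic protein of the granule, ranged from 600.2 to 1110 CPM and from 797.8 to 2355 CPM (0.63). Ccr3, the eotaxin receptor, differed little (0.07).

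The eosinophil difference rested on 3 of 6 KO Control mice. A3672, A3673 and A3680 had summed levels of 4001, 5255 and 3292 CPM. The other KO Control mice had 1827 to 2264 CPM, within the WT Control range of 1278 to 2506 CPM. In the T1D mice the median of the list was 1.08, and Ear1 and Alox15 passed there (log2 fold changes of 1.27 and 1.24). Without A3905 and A3906 their values were 1.23 ± 0.29 and 1.21 ± 0.28, with an adjusted p of 0.22 for each. Alox15 and Epx are also chromosome 11 genes within 10 Mb of Sarm1. In bulk RNA more cells of a type and more RNA per cell cannot be told apart.

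Lists of bone cells showed 0 genes past the threshold. Osteoblast markers had a median log2 fold change of -0.20, with 18 of 24 negative and 5 at an unadjusted p under 0.05 (20.8%, against 4.8% of all genes). Col1a1, the main collagen of bone, ranged from 31388 to 62370 CPM in WT Control and from 27360 to 54623 CPM in KO Control. It was thus abundant in every mouse of both groups. Ibsp, bone sialoprotein, had a value of -0.36 ± 0.15 and Fgfr2, a growth factor receptor, of -0.23 ± 0.10. Osteocyte markers had a median of -0.11 (11 of 15 negative), with Enpp1 at -0.23 and the phosphate-regulating hormone Fgf23 at 1.07. Osteoclast markers had a median of -0.27 (14 of 17 negative, 3 at an unadjusted p under 0.05, which is 17.6% against 4.8% of all genes), with the chloride transporter Clcn7 at -0.25 and the receptor Oscar at -0.64. Their sums ranged from 3928 to 4536 CPM in WT Control and from 3325 to 4093 CPM in KO Control. The two-sided exact permutation test gave p = 0.024 (adjusted p = 0.47), the smallest unadjusted p of any marker sum. In T1D mice the osteoblast median was 0.64, with A3905 and A3906 included.

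Pathway lists of bone formation, bone resorption and growth factors had medians between -0.17 and -0.06. Collagens and their processing enzymes had a median of -0.17 (35 of 39 negative, 5 at an unadjusted p under 0.05, which is 12.8% against 4.8% of all genes), led by Col27a1 (-0.56) and Col6a3 (-0.86). The list for RANKL, OPG and PTH signaling had a median of -0.16 (8 of 9 negative), with the receptor Csf1r at -0.18 and its ligand Csf1 at -0.16. Wnt pathway genes had a median of -0.07, with the Wnt deacylase Notum at -0.98 and the receptor Fzd8 at -0.39. BMP and TGF-beta genes had a median of -0.06 (Tgfbr2 -0.21, Bmp4 -0.35), and hedgehog and FGF genes had a median of -0.16, with the hedgehog target Gli1 at -0.81. Insulin and IGF genes had a median of -0.11, with Igf2r at -0.31 and Igfals at -0.82. None of these genes passed.

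SARM1's own biochemical setting was also without a called gene. Among 28 tested genes of NAD metabolism and axon survival, none had an unadjusted p under 0.05, and the median was 0.06. Nampt, the rate-limiting enzyme of NAD salvage, had a log2 fold change of 0.16 ± 0.08 and Qprt, an enzyme of de novo NAD synthesis, of 0.48 ± 0.31. Toll-like receptors and TIR adaptors had a median of 0.00, with Traf3 at -0.14 and Irf3 at -0.11. The C-C chemokines of chromosome 11 had a median of 0.09, with Ccl4 at 0.44 ± 0.35 and Ccl6 at 0.24 ± 0.20. Neuron markers could be tested for only 7 of 20 genes and had a median of -0.03 (Uchl1 -0.21, Rbfox3 0.17), and Schwann cell markers had a median of -0.01 (Egr2 -0.51).

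Xaf1 is itself an interferon-stimulated gene, and the other members of that list were read beside it. Of 32 tested members 31 had a positive value, Xaf1 alone passed, 4 including Xaf1 had an unadjusted p under 0.05 (12.5%, against 4.8% of all genes), and the median was 0.16. Isg15, a ubiquitin-like modifier, had 32.6, 39.1, 42.8, 45.8 and 46.5 CPM in WT Control and ranged from 40.2 to 67.5 CPM in KO Control (log2 fold change of 0.42 ± 0.14). The groups overlapped. Ifit1, an inhibitor of viral RNA translation, ranged from 10.9 to 26.2 CPM and from 23.6 to 34.9 CPM (0.60), and was named after its values were seen. The highest value in the list besides the 3.22 of Xaf1 was that of Ifit1. Antigen presentation genes had a median of -0.11 (Tap2 -0.28, Tapbp -0.17), and 18 of 23 were negative. H2-Q6 was the highest of them at 1.87, did not pass and was named after its values were seen.

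Lists of blood and stromal cells gave these medians, with their leading members. Erythroid markers were at 0.14 (Tal1 0.27), megakaryocyte and platelet markers at 0.13 (Gp9 0.25, Ppbp 0.37) and neutrophil markers at 0.01 (Mmp9 -0.32, S100a9 0.23). B cell markers were at 0.17 (Cr2 -0.60, Jchain 0.34), T and NK cell markers at -0.06 (Gzma 0.52, Cd3d -0.52) and macrophage markers at 0.00 (Csf1r -0.18, Adgre1 0.18). Mast cell and basophil markers were at -0.11 (Cma1 -1.56, Kit -0.13). Endothelial markers were at -0.15 (Stab1 -0.39, Robo4 -0.32), stromal niche markers at -0.05 (Pdgfrb -0.32, Angpt1 0.26), adipocyte markers at -0.12 (Plin1 -1.16, Cfd -0.78) and skeletal muscle markers at -0.47 (Myh7 1.90, Myh4 -1.24). None of these genes passed, and muscle sums ran from 2193 to 13819 CPM in WT Control and from 1146 to 13051 CPM in KO Control.

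Metabolic, stress and cell division lists also had no called gene. Antioxidant and NRF2 genes had a median of 0.00 (Cat 0.17, Gpx4 0.19), and NADPH oxidase genes had a median of 0.03 (Nox4 -0.50, Ncf1 0.10). Medians were 0.03 for oxidative phosphorylation (Cox7a2 0.22, Ndufb8 0.23), 0.02 for fatty acid oxidation (Ppargc1a 0.93, Hadha 0.05), -0.01 for glycolysis (Aldoa -0.28, Ldhb 0.26) and -0.01 for lipid and cholesterol synthesis (Scd1 -0.36, Srebf1 -0.13). They were 0.11 for cytosolic ribosomal proteins (Rpl12 0.26, Rps3 0.23; 36 of 38 positive), 0.11 for mitosis (Bub1 0.24, Ttk 0.27; 23 of 24 positive) and 0.06 for DNA replication (Rfc4 0.39, Gins2 0.30). Immediate early genes were at -0.02 (Fosb -2.16, Egr2 -0.51), clock genes at -0.03 (Nfil3 0.21, Npas2 -0.41), glucocorticoid-responsive genes at -0.06 (Sgk1 -0.29, Cdkn1a -0.21) and the unfolded protein response at -0.02 (Preb -0.09, Ddit3 0.22).

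**Figure D5:**
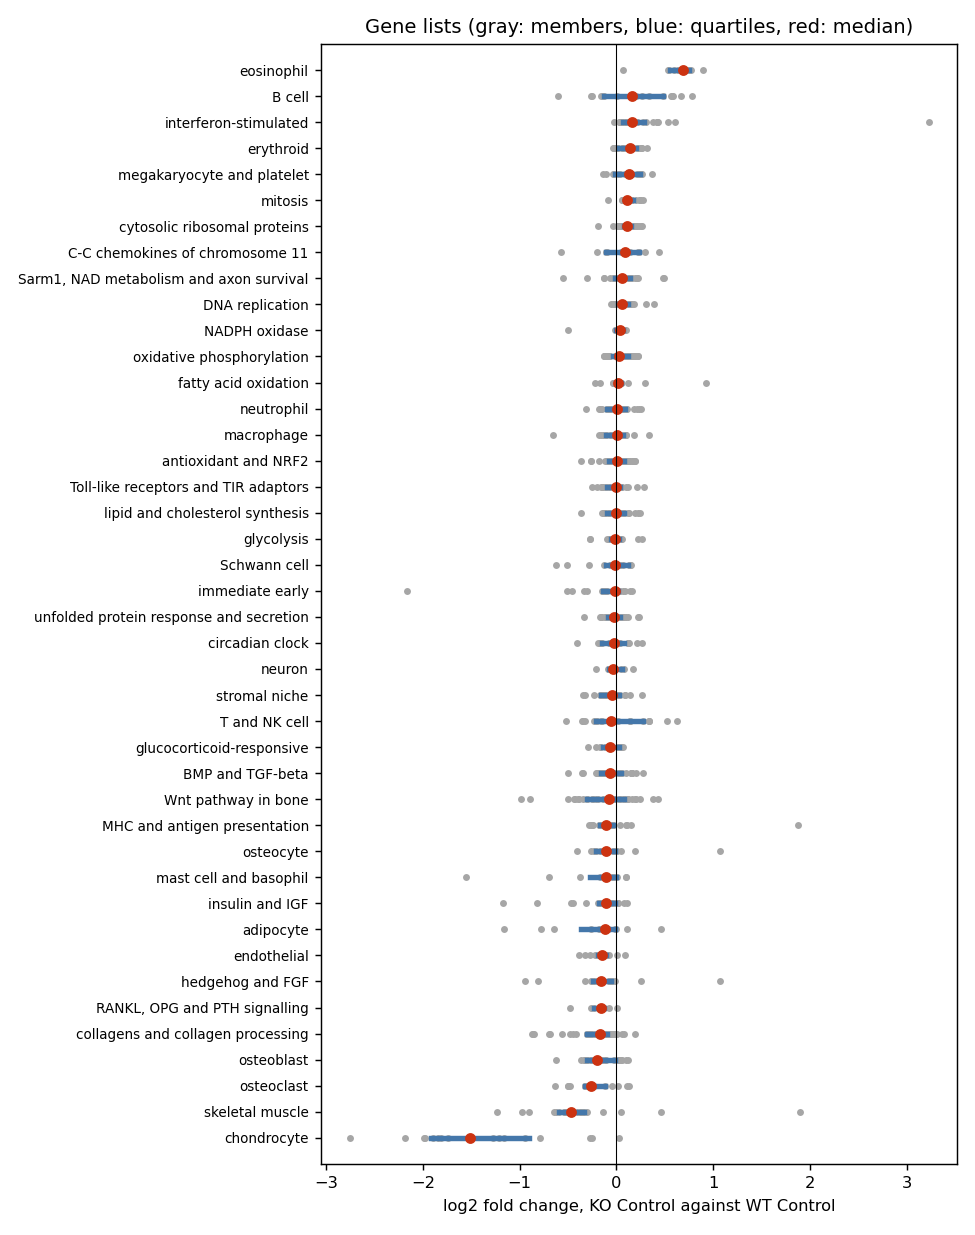
Log2 fold change in KO Control against WT Control (x axis) of the tested members of each gene list (gray), with quartiles (blue) and median (red). Eosinophil markers have the highest median (0.68), chondrocyte markers the lowest (-1.51) and skeletal muscle markers the next lowest (-0.47), and Xaf1 is the far point of the interferon-stimulated list.

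The libraries of the 2 groups were alike in depth. Total counts ranged from 16951990 to 18161483 in WT Control and from 16938101 to 18591027 in KO Control (two-sided exact permutation p = 0.61, adjusted p = 0.90). Hemoglobin genes took 9.73% to 13.9% of counts in WT Control and 8.01% to 15.8% in KO Control (exact permutation p = 0.64, adjusted p = 0.90), and the 10 most abundant genes took 21.1% to 24.1% and 19.1% to 24.3% (p = 0.46, adjusted p = 0.90). The libraries were separate samples by their counts, the closest of 25 within-group pairs having a chi-square per gene of 14.04. The TPM columns, used only as an alternative, summed to 1000000 in every WT Control mouse and to between 999993 and 999996 in every KO Control mouse. They also summed to 1000000 in every WT T1D mouse and to between 999994 and 999997 in KO T1D, so this gap cannot be told apart from genotype. The part of this gap in the TPM results, and any bearing on the counts, was not tested.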

How the data were processed

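The authors deposited 1 table of unnormalized RSEM expected counts, which they had rounded, and 1 of TPM. The submitters' notes name HISAT, Bowtie2 and the build GRCm38.p6. Counts of all 23 mice were fitted in edgeR 4.0.16 (R 4.3.3; TMM, quasi-likelihood test, 4 group means), so that 1 estimate of the spread was shared, and KO Control was contrasted with WT Control. A gene was tested when 5 or more libraries held 10 or more counts. Adjusted p values are Benjamini-Hochberg values over 14364 genes. Positions for 14307 of them came from RefSeq on the same build.

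Single values were compared with exact permutation tests over 462 or 924 splits of the mice, and library measures were adjusted as a family of 40 that includes marker sums. The procedure was tested on simulated data. Replicates are mice, and p values cover the spread between mice. Alternatives covered the libraries fitted, DESeq2 1.42.0, limma 3.58.1 on log2 (TPM + 1) and log2 (TPM + 0.1), normalization, gene filter, threshold, an erythroid covariate and leaving out each mouse. Figures and summaries used Python 3.11.15 with matplotlib 3.10.9.

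The comparison and the gene lists were chosen with earlier results of these data known. Named genes were Sarm1, those past the threshold, those with the smallest p down to rank 20, the 10 largest changes in each direction at a mean of at least 1 CPM, the 5 neighbors of Sarm1 on each side and the 2 members of each list with the smallest p. A few members named by this rule are not reported here. Col1a1, Col2a1, Prg2, Ccr3 and Epx were also named outside this rule, with their values known. For any other gene picked with its values known, the text says so.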

Additional observations from a re-analysis of the deposited data

Results flagged for a closer look

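Of 62 groups of 5 or 6 mice examined for 1 mouse far from the others by Dixon's ratio, 3 held such a mouse, and chance gives about 1 in 20. KO Control mouse A3766 had 1.21 CPM of Ccdc92b, with the next mouse at 2.05 CPM. WT Control mouse A3907 had 15.3 CPM of Xaf1, with the next mouse at 10.8 CPM. WT Control mouse A1757 had 13.9% of its counts in hemoglobin genes, with the next mouse at 10.3%. Ccdc92b and Xaf1 passed the threshold with and without each of these mice.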

How the results depend on the processing

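No paired analysis was possible because the groups share no mouse numbers. Ccdc92b, Xaf1 and Vtn passed in all 24 alternatives, with log2 fold changes from -3.45 to -2.40, from 2.70 to 3.36 and from 2.63 to 3.49. Tlcd2 passed in 4 of the 24 (log2 fold change from 0.93 to 1.28, adjusted p up to 0.24), so the total was 3 to 5 genes, and 3 to 4 when 1 mouse was left out. The number of genes lower in KO Control was 1, and 2 with limma on log2 (TPM + 1), which added H2-Q1. Leaving out WT T1D mice A3905 and A3906 was chosen after seeing the data, and with it 3 of the 4 genes passed in the T1D comparison. The Sarm1 difference was -0.16 on log2 (TPM + 1) and from -0.58 to -0.29 when 1 mouse was left out, and it never passed. Of 2993 values of 125 named genes under alternatives, 14 changed sign. Without WT Control mouse A3907 Amy2a5 went to 4.69 and Ctrb1 to 4.09, their lowest values being -4.26 and -4.67 without A3670. Tnfaip1 was at 0.059 with the erythroid covariate and ran from -0.065 to 0.046 with 1 mouse left out, positive without A3672, A3673, A3680, A3903 or A3907. Slc13a2 was at -0.048 with the A36 to A39 mice only and ran from -0.052 to 0.54, negative without A3670 or A1757. Hadha ran from -0.017 to 0.092 and Ldhb from -0.00081 to 0.43, both negative without A3679, and Rbfox3 ran from -0.0038 to 0.42, negative without A3904. The cause of these changes was not tested. Depth limits Sarm1 and other genes near 1 CPM.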
